A study of Homo sapiens with 9 samples.

Results

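The genes of the MYC and MAX transcription factor network were followed in MDA-MB-231, a human line derived from a breast tumour of the triple-negative type. The members were MYC, MYCN, MAX, MXD1, MXD3, MXD4, MXI1, MNT, MGA and MLX. Every probe set of the HG-U133 Plus 2.0 array that its annotation maps to one of these symbols and to no other was taken, which gave 33 probe sets of 9 genes, out of 54613 probe sets tested and 19775 genes named by the array. MYCN had 10 of them, MLX 6, MAX 5, MGA 4, MXD1 3, MNT 2, and MYC, MXD3 and MXI1 had 1 each. MXD4 had 0, because its 3 probe sets also carry the symbol of a microRNA gene, so MXD4 is not described. Of the 33 probe sets, 17 end in _at, 12 in _s_at (probes that can match several transcripts) and 4 in _x_at (probes that can also bind other sequences).

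The cells received Qmimic, Dmimic or AllStar, a negative control, by lipid transfection at 10 nM, and RNA was taken after 48 h. Each group had 3 biological replicates, each from its own well and on its own array. The title of the series refers to miR-34a, a microRNA. What distinguishes Qmimic from Dmimic is not given in the labels, nor is a sequence of either, and all wells share 1 cell line and the transfection itself.

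MYC and MYCN are basic helix-loop-helix leucine zipper proteins that bind DNA only as dimers with MAX, at the hexamer CACGTG, the E-box, and raise the transcription of genes for growth and division. MXD1, MXD3, MXD4, MXI1 and MNT compete for MAX and recruit the SIN3 and histone deacetylase co-repressor to the same sites, and MGA joins MAX within a Polycomb-type repressor complex. MLX is the MAX-like partner of MLXIP and MLXIPL, the sensors of glucose metabolites, and also pairs with MXD1, MXD4 and MNT. MYC and MYCN have each been reported as targets of miR-34a.

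The mature sequence of miR-34a-5p, from RefSeq (GRCh38.p14), is shown because of the title. Capitals mark the seed, bases 2 to 8. Among the mature human microRNAs searched, miR-449a and miR-449b-5p also carried this seed. The search did not cover every human microRNA, so others may share it.
hsa-miR-34a-5p: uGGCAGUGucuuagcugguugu

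Promoters are shown for the measured members whose own start region holds the E-box, and for TXNIP and ARRDC4, genes regulated by MLX that passed the test without AllStar replicate 3, an array described below. The windows run from 250 bases before to 50 bases after the gene's start (RefSeq, GRCh38.p14) and are printed on the gene's strand. Capitals mark CACGTG or, in TXNIP, CACGAG, the half-sites of the carbohydrate response element through which MLX dimers act on that gene.
MLX, chr17:42566850-42567149, plus strand: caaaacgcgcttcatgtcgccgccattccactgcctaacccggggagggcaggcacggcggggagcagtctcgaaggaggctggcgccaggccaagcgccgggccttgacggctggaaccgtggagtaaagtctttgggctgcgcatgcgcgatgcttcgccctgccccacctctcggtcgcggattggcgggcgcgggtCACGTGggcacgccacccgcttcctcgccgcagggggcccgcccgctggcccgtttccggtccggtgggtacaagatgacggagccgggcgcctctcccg
MNT, chr17:2401011-2401310, minus strand: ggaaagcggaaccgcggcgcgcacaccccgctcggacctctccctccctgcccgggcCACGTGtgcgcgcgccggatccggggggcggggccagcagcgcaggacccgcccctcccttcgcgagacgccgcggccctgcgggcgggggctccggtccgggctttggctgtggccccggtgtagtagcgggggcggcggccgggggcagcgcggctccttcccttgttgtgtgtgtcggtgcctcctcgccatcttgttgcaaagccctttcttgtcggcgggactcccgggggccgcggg
TXNIP, chr1:145996530-145996829, minus strand: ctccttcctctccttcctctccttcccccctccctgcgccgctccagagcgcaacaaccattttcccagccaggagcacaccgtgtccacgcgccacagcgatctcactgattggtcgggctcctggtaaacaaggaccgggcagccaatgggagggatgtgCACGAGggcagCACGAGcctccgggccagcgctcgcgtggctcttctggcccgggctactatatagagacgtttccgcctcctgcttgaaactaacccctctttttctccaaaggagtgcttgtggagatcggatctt
ARRDC4, chr15:97960453-97960752, plus strand: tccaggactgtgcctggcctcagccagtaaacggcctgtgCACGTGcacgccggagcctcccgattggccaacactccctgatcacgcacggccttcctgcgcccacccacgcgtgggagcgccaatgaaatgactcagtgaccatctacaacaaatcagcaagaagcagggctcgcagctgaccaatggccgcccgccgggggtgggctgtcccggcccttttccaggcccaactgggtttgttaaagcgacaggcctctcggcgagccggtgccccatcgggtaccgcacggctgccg
CACGTG begins 50 bases before the start in MLX, 193 before it in MNT and 210 before it in ARRDC4, and the CACGAG copies of TXNIP begin 88 and 77 bases before its start. Both strands were searched, and CACGTG is its own reverse complement. Of the 9 members with a promoter in the table, 3 (33.3%) held CACGTG, MXD4 being the other one, against 2030 of all 27305 promoters (7.4%). MYC had no promoter there and was not searched. CACGAG was in 0 of the 9 and in 1855 of all promoters (6.8%). A match of letters is a description and not a site of binding.

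One array, AllStar replicate 3, was unlike the rest. It correlated with them at 0.974 to 0.981 over all probe sets, while the lowest correlation among the other 8 arrays was 0.993, and its interquartile range was 2.99 against 3.41 to 3.53. Its probe sets for 18S ribosomal RNA averaged 8.73, against 5.27 to 6.26 elsewhere. Set against AllStar replicates 1 and 2 averaged, its median difference was 0.21 for probe sets at log2 levels of 4 to 6 and -0.45 for those at 8 to 10. The 7 genes chosen to mark the cell line (VIM, CD44, EGFR, MSN, KRT18, AXL, FOSL1) lay between 9.66 and 13.71 on every array, CDH1 and PGR lay between 3.44 and 4.72, and leukocyte, fibroblast and endothelial markers lay between 3.19 and 7.41. Of the markers chosen as low in this line, ERBB2 and GATA3 read 7.45 to 8.78 and ESR1 6.74 to 7.45, so these 3 were not at the bottom of the range.

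The same array lay at the edge of the values of most members. On 20 of the 33 member probe sets it lay above both other AllStar arrays and on 12 below both, with differences from their mean of -0.66 to 0.91. It was the highest of all 9 arrays on 16 and the lowest on 12. Results are therefore given with all 9 arrays, the primary fit, and without AllStar replicate 3, which leaves 2 AllStar arrays.

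**Figure D1:**
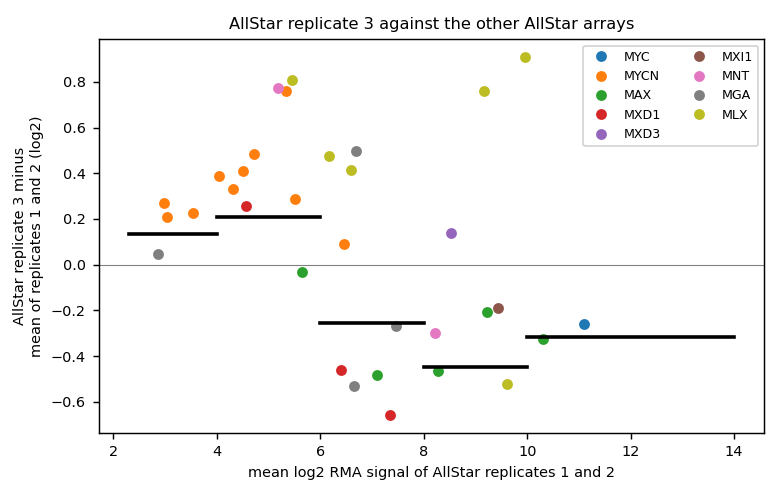
Difference of AllStar replicate 3 from the mean of AllStar replicates 1 and 2 (y axis, log2) for the 33 member probe sets against their level (x axis, log2 RMA signal), with medians over all probe sets by level. MLX 213708_s_at lies highest (0.91) and MXD1 226275_at lowest (-0.66).

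No member probe set changed by the thresholds used, an adjusted p under 0.05 in limma with a change of at least 1.5-fold. With all 9 arrays, 0 of 33 were called for Qmimic against AllStar, where the share over all probe sets was 0%, and 8 had an unadjusted p under 0.05 (24.2%, against 16.3% of all). For Dmimic against AllStar 0 of 33 were called against 0.00549% of all, and 5 had an unadjusted p under 0.05 (15.2%, against 12.8%). For the mean of both mimics the call count was 0 of 33 against 0.0806%, with 6 below that unadjusted level (18.2%, against 19.2%). The smallest adjusted p values of a member were 0.192 for Qmimic, 0.156 for Dmimic and 0.0956 for both mimics.

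Without AllStar replicate 3 the members still gave 0 calls, while over all probe sets the share called was 0.540% for Qmimic, 0.864% for Dmimic and 0.721% for both mimics. The unadjusted counts were 9, 8 and 10 of 33, or 27.3%, 24.2% and 30.3%, against 18.2%, 17.1% and 19.1% of all. By adjusted p alone, 4 of 33 (12.1%) passed for Dmimic, against 2.31% of all probe sets, 0 for Qmimic, against 1.75%, and 0 for both mimics, against 3.02%. These 4 were MXD1 226275_at and 228846_at and MLX 213708_s_at and 217910_x_at, all higher in Dmimic cells by less than 1.5-fold. Probe sets of 1 gene share their transcripts and are not independent. With all 9 arrays the same rule passed 0 members for Qmimic, Dmimic and both mimics, against 0%, 0.00549% and 0.0897%.

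Most members were bounded within 1.5-fold, as were most probe sets of the array. With all 9 arrays, the 95% interval of the change lay wholly within 1.5-fold for 26 of 33 in Qmimic (78.8%, against 74.9% of all probe sets). For Dmimic it did so for 27 of 33 (81.8%, against 77.8%). Without AllStar replicate 3 this held for 31 and 29 of 33 (93.9% and 87.9%), against 94.1% and 93.8%. The median half-width of these intervals was 0.27 on the log2 scale with all 9 arrays and 0.17 without AllStar replicate 3.

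**Figure D2:**
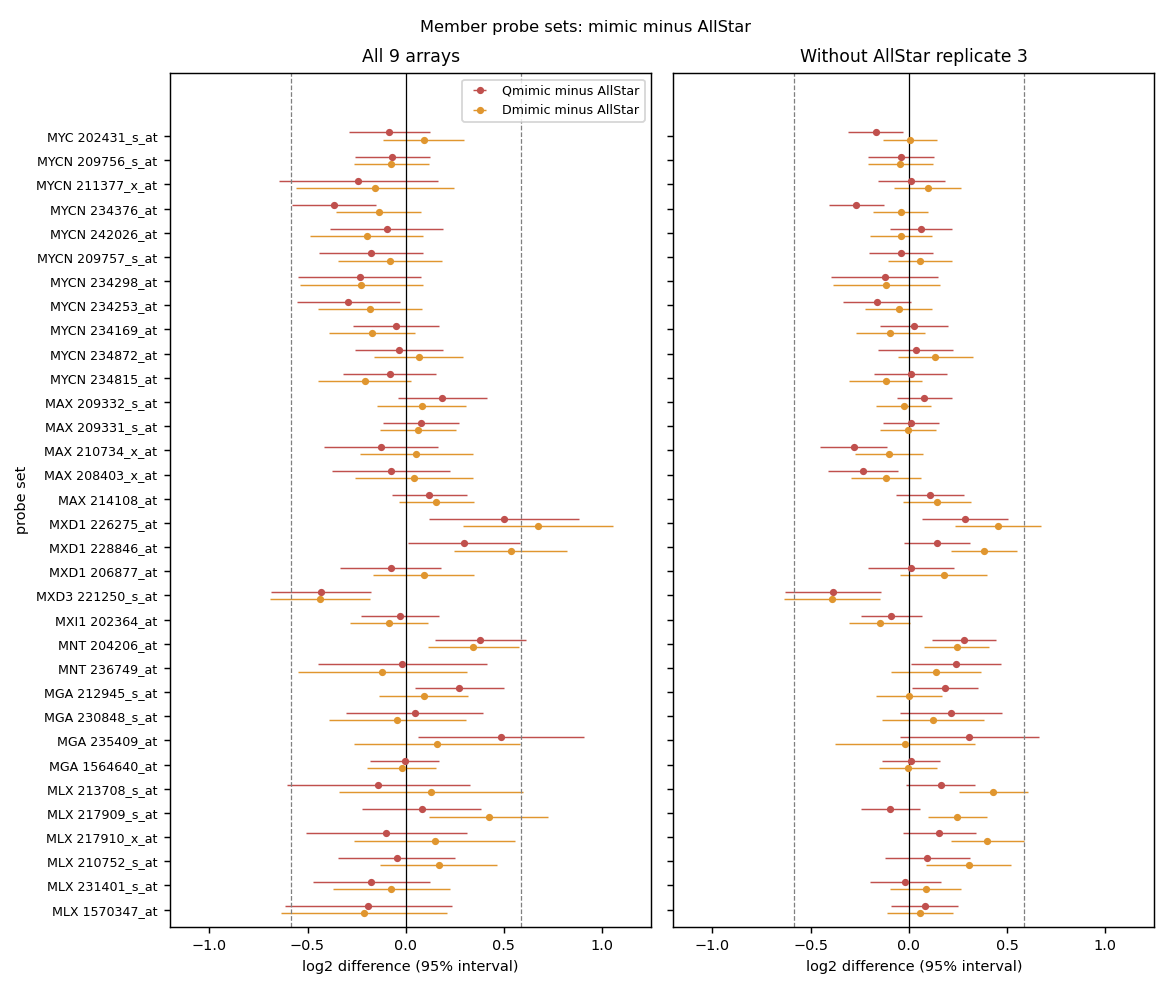
Log2 differences (points) with 95% intervals (lines) of the 33 member probe sets, Qmimic minus AllStar and Dmimic minus AllStar, with all 9 arrays (left) and without AllStar replicate 3 (right); dashed lines mark 1.5-fold. MXD1 226275_at and 228846_at lie to the right and MXD3 to the left of 0 in both panels, and MLX 213708_s_at has a Qmimic difference of -0.14 on the left and 0.16 on the right.

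The median difference over the 33 probe sets was -0.07 for Qmimic and 0.04 for Dmimic with all 9 arrays, against -0.03 for each over all probe sets. Without AllStar replicate 3 it was 0.01 for each mimic, against -0.01 for Qmimic and 0.00 for Dmimic over all. Signs were mixed: 10 of 33 were positive for Qmimic with all 9 arrays and 21 without AllStar replicate 3, and for Dmimic 17 and 18.

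MYC, the oncogenic activator of the network, had 1 probe set, 202431_s_at. Its log2 signals were 10.93, 10.87 and 10.96 in Qmimic cells, 11.09, 11.10 and 11.10 in Dmimic cells, and 11.10, 11.08 and 10.83 in AllStar cells. Dmimic cells and AllStar replicates 1 and 2 thus lay between 11.08 and 11.10, the 3 Qmimic arrays lay below these 5, and AllStar replicate 3 lay lowest.

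The difference of Qmimic from AllStar was -0.08 (95% interval -0.29 to 0.12, limma adjusted p = 0.611). With AllStar replicate 3 left out it was -0.17 (interval -0.31 to -0.03, adjusted p = 0.189), with all Qmimic arrays below both remaining AllStar arrays. For Dmimic it was 0.09 (-0.11 to 0.30, adjusted p = 0.637) and, without that array, 0.01 (-0.13 to 0.14, adjusted p = 0.982). The order of the group means was Dmimic (11.10), AllStar (11.01) and Qmimic (10.92), and none of these neighbours differed past the test. A lower signal in RNA of a whole well cannot tell fewer expressing cells from less RNA per cell.

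MYCN, the paralogue of MYC best known from neuroblastoma, was called on none of its 10 probe sets. Its probe set with the highest mean, 209756_s_at, read 6.43, 6.47 and 6.35 in Qmimic cells, 6.33, 6.51 and 6.38 in Dmimic cells, and 6.43, 6.48 and 6.54 in AllStar cells, so the groups overlapped. The other 9 MYCN probe sets lay between 2.75 and 6.09. One of them, 234376_at, had a low mean of 5.44, at percentile 49.1 of all probe sets, and detection was not tested. It read 5.30, 5.22 and 5.20 in Qmimic cells, 5.47 on all 3 Dmimic arrays, and 5.50, 5.52 and 5.80 in AllStar cells.

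That Qmimic difference was -0.36 (adjusted p = 0.192), and without AllStar replicate 3 it was -0.27 (adjusted p = 0.0629). Of the other MYCN probe sets, the Qmimic arrays lay below all AllStar arrays on 1, 234253_at. The 3 Dmimic values of 234376_at were equal to all decimals deposited.

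MAX, the shared dimer partner, was called on none of its 5 probe sets. The one with the highest mean, 209332_s_at, read 10.37, 10.42 and 10.37 in Qmimic cells, 10.25, 10.29 and 10.30 in Dmimic cells, and 10.28, 10.34 and 9.98 in AllStar cells. The difference was 0.19 for Qmimic (interval -0.04 to 0.41, adjusted p = 0.355) and 0.08 for Dmimic (-0.14 to 0.31, adjusted p = 0.699). The Qmimic arrays lay just above the AllStar arrays, by a margin that was 0.08 in the means without AllStar replicate 3 (adjusted p = 0.556).

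The probe sets of MAX differed in sign. Its 210734_x_at read 7.98, 8.04 and 7.96 in Qmimic cells, 8.25, 8.21 and 8.06 in Dmimic cells, and 8.33, 8.22 and 7.81 in AllStar cells. In the fit of the other 8 arrays its Qmimic difference was -0.28 (adjusted p = 0.0943), opposite in sign to 209332_s_at, and that of 208403_x_at was -0.23 (adjusted p = 0.160). Both are of the class that can bind other sequences. 209331_s_at stayed between 9.01 and 9.25 on every array.

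**Figure D3:**
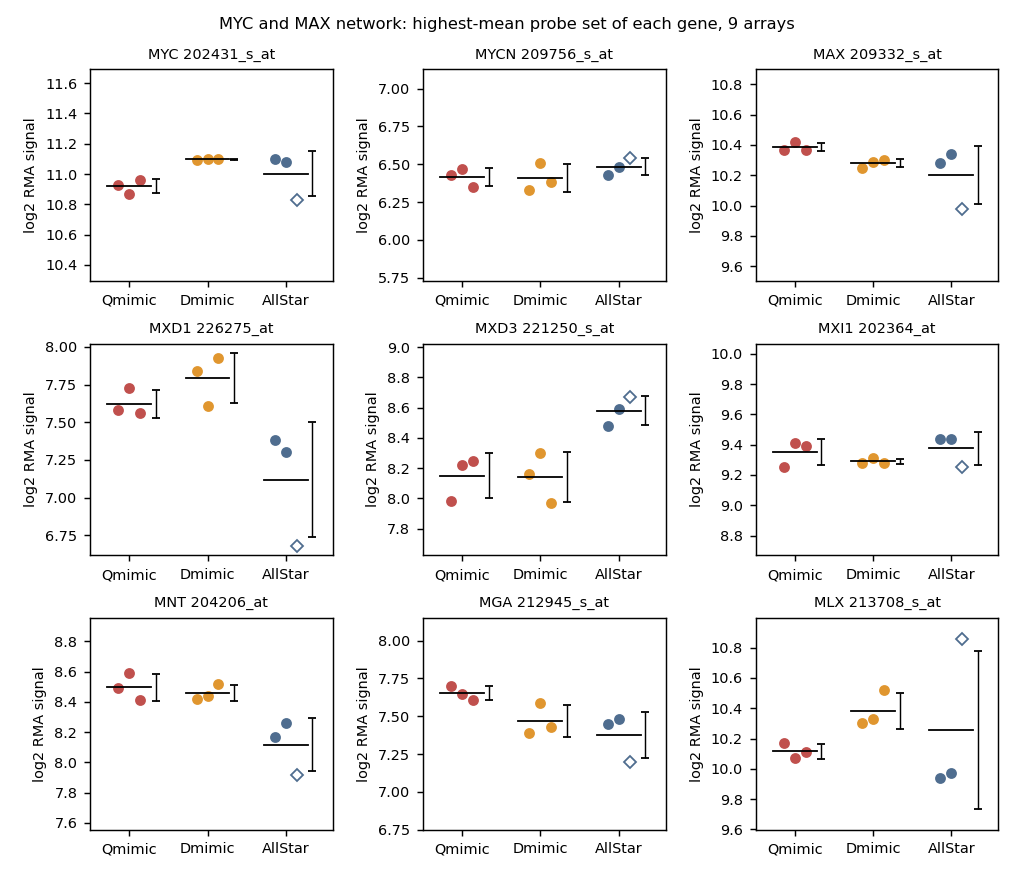
Log2 RMA signal (y axis) of the probe set with the highest mean for each of the 9 measured members, in Qmimic, Dmimic and AllStar cells; points are arrays, lines are group means, bars are SD (n = 3) and the open diamond is AllStar replicate 3. MXD3 is lower and MNT is higher on all 6 mimic arrays than on all 3 AllStar arrays.

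MXD1, a MAX partner that accumulates as cells stop dividing and differentiate, had the largest difference from AllStar of any member with all 9 arrays, for each mimic. 226275_at read 7.58, 7.73 and 7.56 in Qmimic cells, 7.84, 7.61 and 7.93 in Dmimic cells, and 7.38, 7.30 and 6.68 in AllStar cells. All 6 mimic arrays lay above all 3 AllStar arrays, and AllStar replicate 3 lay far below the rest.

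For Qmimic the difference was 0.50 (SE 0.17, adjusted p = 0.243) and for Dmimic 0.67 (SE 0.17, adjusted p = 0.172). When AllStar replicate 3 was left out these were 0.28 (SE 0.10, adjusted p = 0.164) and 0.46, or 1.37-fold (SE 0.10, adjusted p = 0.0443). Both mimics together against AllStar gave 0.59 (adjusted p = 0.114). Permuting the group labels over the 9 arrays gave a two-sided exact p of 0.0119, the smallest this design allows. For 3 arrays against 3 the smallest is 0.1. The value of 0.0119 only restates that the mimic and AllStar arrays did not overlap, which 8.33% of all probe sets showed in this direction.

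A second MXD1 probe set, 228846_at, read 6.60, 6.59 and 6.43 in Qmimic cells, 6.75, 6.80 and 6.79 in Dmimic cells, and 6.34, 6.46 and 5.94 in AllStar cells. Every Dmimic array exceeded every AllStar array, while the Qmimic arrays overlapped them. The Dmimic difference was 0.53 (adjusted p = 0.156), and 0.38 without AllStar replicate 3 (adjusted p = 0.0347). The third, 206877_at, read 4.46 to 4.85 over the 9 arrays with groups that overlapped.

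**Figure D4:**
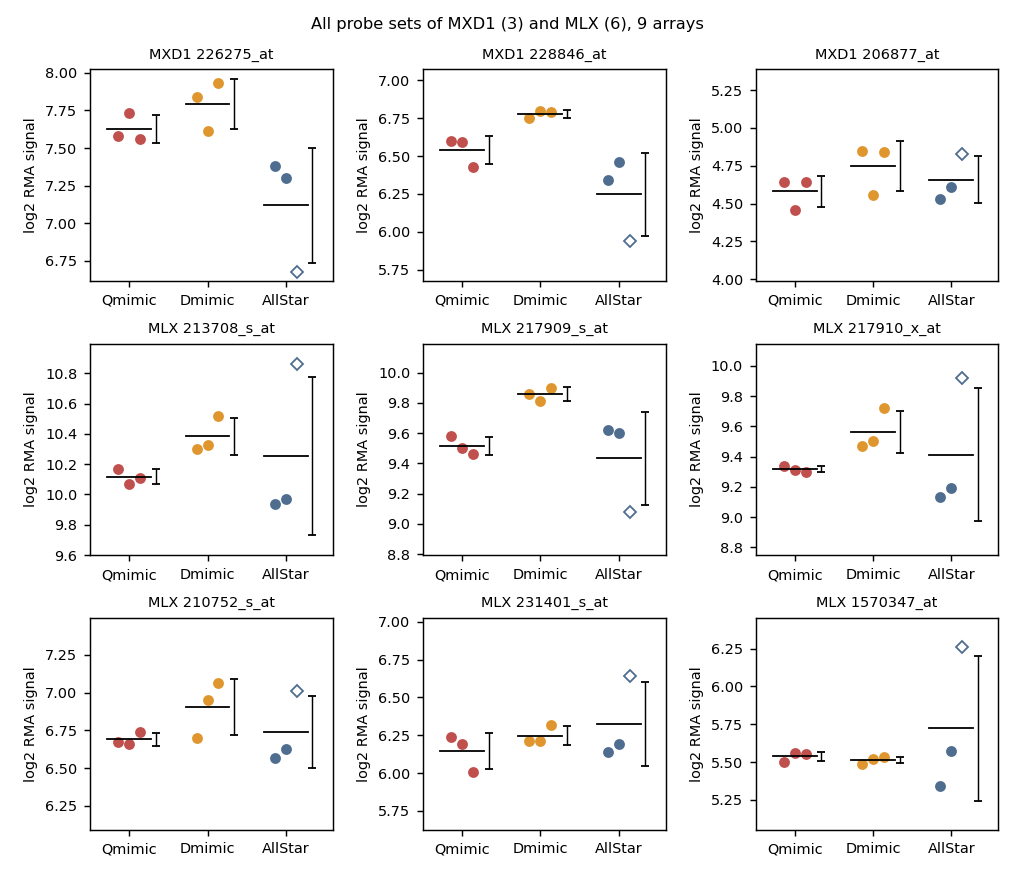
Log2 RMA signal (y axis) of the 3 MXD1 and 6 MLX probe sets in Qmimic, Dmimic and AllStar cells; points are arrays, horizontal lines are group means, bars are SD (n = 3) and the open diamond is AllStar replicate 3. On MLX 213708_s_at AllStar replicate 3 reads 10.86, above every other array, and on MXD1 226275_at it reads 6.68, below every other array.

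MXD3, a family member found in cells that are still cycling, was the member with the lowest adjusted p over both mimics with all 9 arrays. 221250_s_at, its 1 probe set, read 7.98, 8.22 and 8.25 in Qmimic cells, 8.16, 8.30 and 7.97 in Dmimic cells, and 8.48, 8.59 and 8.67 in AllStar cells. All 6 mimic arrays lay below all 3 AllStar arrays, and AllStar replicate 3 did not stand apart, being 0.14 above the mean of the other AllStar arrays.

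The difference was -0.43 for Qmimic (SE 0.11, adjusted p = 0.192) and -0.44 for Dmimic (SE 0.11, adjusted p = 0.180). Over both mimics it was -0.44 (1.35-fold lower, adjusted p = 0.0956). The exact two-sided permutation p of 0.0119 follows from the lack of overlap, which 3.83% of all probe sets showed in this direction. On the 8 remaining arrays both mimics together gave -0.39 (adjusted p = 0.0618). MXD3 and MXD1 226275_at thus had opposite signs in each mimic, with and without that array.

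MXI1, also called MXD2, read 9.25, 9.41 and 9.39 in Qmimic cells, 9.28, 9.31 and 9.28 in Dmimic cells, and 9.44, 9.44 and 9.25 in AllStar cells on 202364_at. The differences were -0.03 for Qmimic (interval -0.23 to 0.17, adjusted p = 0.869) and -0.09 for Dmimic (-0.28 to 0.11, adjusted p = 0.648), and both intervals lie within 1.5-fold. With AllStar replicate 3 left out they were -0.09 (adjusted p = 0.541) and -0.15 (adjusted p = 0.315).

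MNT, the MAX partner that most cell types carry whether or not they divide, was higher on every mimic array. 204206_at read 8.49, 8.59 and 8.41 in Qmimic cells, 8.42, 8.44 and 8.52 in Dmimic cells, and 8.17, 8.26 and 7.92 in AllStar cells. The groups did not overlap, with AllStar replicate 3 lowest of all.

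The difference was 0.38 for Qmimic (SE 0.10, adjusted p = 0.202) and 0.34 for Dmimic (SE 0.10, adjusted p = 0.237). In the fit of the other 8 arrays it was 0.28 (adjusted p = 0.0861) and 0.24 (adjusted p = 0.117), and 0.26 over both mimics (adjusted p = 0.0632). MNT is one of the members whose promoter, printed above, holds the E-box. Its dimmer probe set, 236749_at, lay at 5.12 to 5.65 on 8 arrays and at 5.95 on AllStar replicate 3.

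MGA, the largest protein of the network, carries a T-box beside its MAX-binding region. 212945_s_at read 7.70, 7.65 and 7.61 in Qmimic cells, 7.39, 7.59 and 7.43 in Dmimic cells, and 7.45, 7.48 and 7.20 in AllStar cells. The Qmimic arrays lay above all others, while Dmimic and AllStar arrays overlapped. The Qmimic difference was 0.27 (SE 0.10, adjusted p = 0.264) and the Dmimic one 0.09 (SE 0.10, adjusted p = 0.669).

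On 235409_at MGA read 6.87, 7.06 and 6.95 in Qmimic cells, 6.87, 6.28 and 6.75 in Dmimic cells, and 6.82, 6.48 and 6.12 in AllStar cells, and the Qmimic difference was 0.49 (adjusted p = 0.274). When AllStar replicate 3 was left out the Qmimic differences were 0.18 for 212945_s_at (adjusted p = 0.235) and 0.31 for 235409_at (adjusted p = 0.343). 230848_s_at lay between 6.51 and 7.19 and 1564640_at between 2.80 and 2.92, with groups that overlapped.

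MLX held the probe set on which AllStar replicate 3 deviated most. 213708_s_at read 10.17, 10.07 and 10.11 in Qmimic cells, 10.30, 10.33 and 10.52 in Dmimic cells, and 9.94, 9.97 and 10.86 in AllStar cells. AllStar replicate 3 was thus the highest array, while AllStar replicates 1 and 2 were the lowest.

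With all 9 arrays the Dmimic difference was 0.13 (SE 0.21, adjusted p = 0.771) and the Qmimic one -0.14 (SE 0.21, adjusted p = 0.705). Without that array the Dmimic difference was 0.43, or 1.35-fold (SE 0.08, adjusted p = 0.0281), and the Qmimic one 0.16 (SE 0.08, adjusted p = 0.312). 217910_x_at followed the same pattern, with a Dmimic difference of 0.15 (adjusted p = 0.702) that became 0.40 (adjusted p = 0.0407). It is of the class that can also bind other sequences.

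217909_s_at was placed the other way by AllStar replicate 3. It read 9.58, 9.50 and 9.46 in Qmimic cells, 9.86, 9.81 and 9.90 in Dmimic cells, and 9.62, 9.60 and 9.08 in AllStar cells. The Dmimic arrays exceeded all others, on average by 0.42 over AllStar with all 9 arrays (adjusted p = 0.255) and by 0.25 without AllStar replicate 3 (adjusted p = 0.0858). Without that array the Dmimic arrays lay above both AllStar arrays on 5 of the 6 MLX probe sets, all but 1570347_at.

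The groups did not overlap on 9 of 33 member probe sets for Qmimic with all 9 arrays, 6 higher (18.2%, against 14.1% of all probe sets) and 3 lower (9.09%, against 10.8%). For Dmimic this held for 5 higher (15.2%, against 11.9%) and 2 lower (6.06%, against 7.04%). Over both mimics it held for 3 higher (against 8.33%) and 2 lower (against 3.83%). These shares with all 9 arrays are near those over all probe sets. In the fit that leaves out AllStar replicate 3, the counts were 11 higher (33.3%, against 17.9%) and 8 lower (24.2%, against 20.0%) for Qmimic, 11 higher (against 17.0%) and 4 lower (12.1%, against 16.5%) for Dmimic, and 7 higher (21.2%, against 10.4%) and 4 lower (against 10.1%) over both. Of the 11 higher for Dmimic, 5 were of MLX. Both mimics are set against the same AllStar arrays.

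Set against each other, the mimics gave 0 of 33 member calls, where the share called over all probe sets was 0% with all 9 arrays and 0.0806% without AllStar replicate 3. Unadjusted p was under 0.05 on 2 member probe sets with all 9 arrays (6.06%, against 2.41% of all). In the fit without AllStar replicate 3, which changes the estimate of spread and not the difference, it was on 10 (30.3%, against 11.1%), and adjusted p passed on 0, against 0.214% of all. The Qmimic and Dmimic arrays did not overlap on 10 members, 3 higher (9.09%, against 7.11%) and 7 lower (21.2%, against 8.95%) in Qmimic cells.

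The member with the largest difference between the mimics was MLX, on 217909_s_at, at -0.34 for Qmimic minus Dmimic (interval -0.64 to -0.04, adjusted p = 1.00). On the 8 remaining arrays its adjusted p was 0.0646. MLX 213708_s_at gave -0.27 and 217910_x_at -0.25, each with every Qmimic array below every Dmimic array. MYC gave -0.17 (interval -0.38 to 0.03), and MXD1 228846_at -0.24 (-0.52 to 0.05). MXD3 gave 0.01 (-0.25 to 0.26) and MNT 0.04 (-0.20 to 0.27), and neither interval reaches 1.5-fold.

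Among the other genes of the network, TXNIP and ARRDC4 code for alpha-arrestins that restrain glucose uptake and are induced by dimers of MLX with MLXIP. TXNIP 201010_s_at read 10.84, 10.78 and 10.76 in Qmimic cells, 10.71, 10.84 and 10.76 in Dmimic cells, and 11.42, 11.38 and 11.27 in AllStar cells. All 6 mimic arrays lay below all AllStar arrays.

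With all 9 arrays TXNIP differed by -0.56 for Qmimic (adjusted p = 0.111) and -0.59 for Dmimic (adjusted p = 0.0669), and over both mimics by -0.57 (adjusted p = 0.0401), which is just under 1.5-fold. With AllStar replicate 3 left out TXNIP fell in both, by 0.61 on the log2 scale in Qmimic cells (1.52-fold, adjusted p = 0.00548) and by 0.63 in Dmimic cells (1.55-fold, adjusted p = 0.00625). Its probe sets 201009_s_at and 201008_s_at had differences of the same sign, -0.47 and -0.57 for Qmimic and -0.56 and -0.62 for Dmimic with all 9 arrays.

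ARRDC4 went the opposite way on 225283_at, at 7.28, 7.07 and 6.90 in Qmimic cells, 6.67, 6.83 and 7.27 in Dmimic cells, and 6.24, 6.30 and 4.82 in AllStar cells. All mimic arrays lay above all AllStar arrays, of which AllStar replicate 3 was far the lowest. The Qmimic difference of 1.30 (SE 0.34, adjusted p = 0.191) became 0.81, or 1.76-fold, without that array (SE 0.16, adjusted p = 0.0360). For Dmimic the values were 1.14 (adjusted p = 0.232) and 0.65 (adjusted p = 0.0604). Of the 8 fits that left out 1 further array, TXNIP was called in 6 for each mimic, all but those without AllStar replicate 1 or 2, and ARRDC4 for Qmimic in 4, all but those and the ones without Qmimic replicate 1 or 2.

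**Figure D5:**
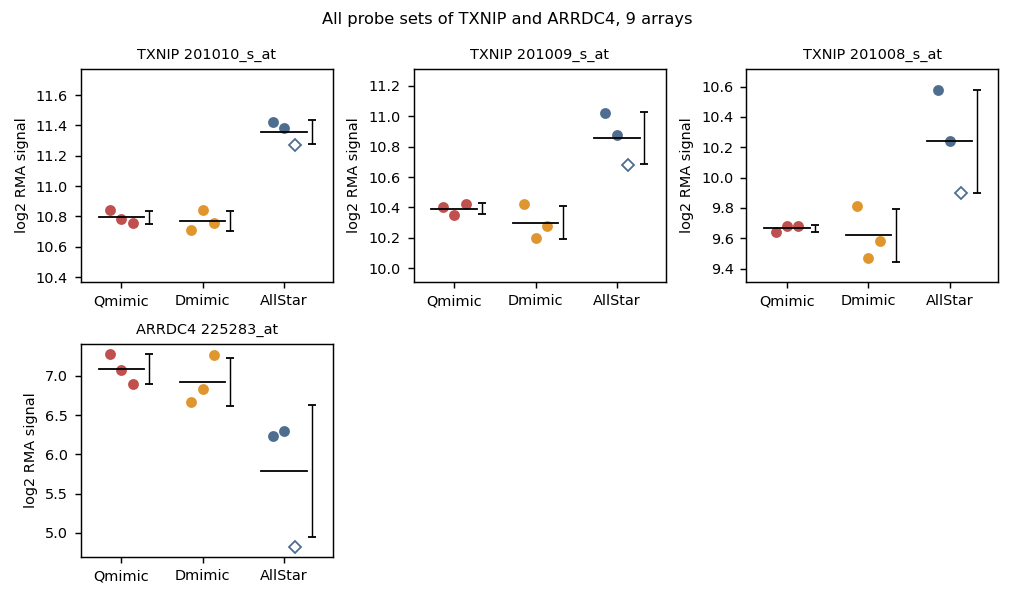
Log2 RMA signal (y axis) of TXNIP 201010_s_at, 201009_s_at and 201008_s_at and of ARRDC4 225283_at in Qmimic, Dmimic and AllStar cells. Points are arrays, lines are group means, bars are SD (n = 3) and the open diamond is AllStar replicate 3. TXNIP is lower and ARRDC4 higher on all 6 mimic arrays than on all AllStar arrays.

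MLXIP read 9.42, 9.45 and 9.39 in Qmimic cells, 9.20, 9.22 and 9.20 in Dmimic cells, and 9.28, 9.19 and 8.79 in AllStar cells, with a Qmimic difference of 0.33 (adjusted p = 0.257) and 0.18 without AllStar replicate 3 (adjusted p = 0.163). MLXIPL and MYCL, the third MYC paralogue, lay between 6.42 and 7.36 and between 5.03 and 5.63. Neither was called in either fit.

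The pathway lists around the network held 0 called genes with all 9 arrays for Qmimic and for Dmimic, each gene standing by its brightest probe set on average, where 0% and 0.0101% of all 19775 genes were called. For genes that MYC is known to activate in the cell cycle, 14 of 17 were negative for Qmimic (82.4%, against 53.0% of all genes) and 15 of 17 for Dmimic (88.2%, against 51.9%). Their medians were -0.34 and -0.44, against -0.02 and -0.01 over all genes.

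In the fit of the other 8 arrays, 2 of these 17 fell in Qmimic cells, where 0.253% of all genes were called lower, namely E2F2 (-0.62, adjusted p = 0.0240) and CDC6 (-0.66, adjusted p = 0.0481). In Dmimic cells 6 of 17 fell, against 0.647% of all genes called lower: the kinase CDK4 (-0.88, adjusted p = 0.0342), the phosphatase CDC25A, which activates cyclin-dependent kinases (-0.85, adjusted p = 0.0332), the origin-loading factor CDC6 (-0.76, adjusted p = 0.0274), and the replicative helicase subunits MCM4 (-0.71), MCM5 (-0.82) and MCM7 (-0.61). In that fit 16 of 17 were negative for each mimic (94.1%, against 52.1% of all genes for Qmimic and 47.4% for Dmimic), with medians of -0.40 for Qmimic and -0.51 for Dmimic, against -0.01 and 0.01 over all genes, and CCND2 was the positive one. CDK4 read 10.37, 10.55 and 10.59 in Qmimic cells, 10.30, 10.47 and 9.73 in Dmimic cells, and 11.03, 11.05 and 10.82 in AllStar cells, with Dmimic replicate 3 the lowest. Many genes of this list are also known as targets of E2F factors.

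Dmimic replicate 3 was the lowest of all 9 arrays on 10 of the 17 cell cycle genes. When it was left out as well, 4 of 17 were called for Dmimic (CDK4, CDC25A, CDC6 and MCM5), against 158 of all genes. MCM4 was then at -0.56 (1.47-fold) and MCM7 at -0.46 (1.38-fold, adjusted p = 0.0647). For Qmimic 4 of 17 were called, against 230 of all genes. Without AllStar replicate 3 and Qmimic replicate 1, 2 or 3, the Dmimic count was 3, 0 and 2, against 211, 122 and 181 of all genes. The Qmimic count was 0, 0 and 1, against 41, 39 and 154. Leaving out Dmimic replicate 1 gave 4 for Dmimic (221 of all genes) and 1 for Qmimic (109 of all genes). Leaving out Dmimic replicate 2 gave 7 (483 of all genes) and 2 (158 of all genes). With either AllStar replicate 1 or 2 left out, 1 AllStar array remains, whose spread is assumed to be that of the other groups. Calls against AllStar were then lost over nearly the whole array, these genes included. The medians of the list were -0.40 and -0.43 for Qmimic and -0.52 and -0.54 for Dmimic.

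The other MYC-activated lists held no calls in either fit. Of 23 measured genes for ribosome biogenesis and translation, 0 were called in either fit. The medians were 0.05 for each mimic with all 9 arrays and -0.02 for Qmimic and -0.03 for Dmimic without AllStar replicate 3. With all 9 arrays 5 were negative for Qmimic and 6 for Dmimic (21.7% and 26.1%, against 53.0% and 51.9% of all genes). Without AllStar replicate 3, 16 were negative for each mimic (69.6%, against 52.1% for Qmimic and 47.4% for Dmimic). POLR1C, a subunit of RNA polymerases I and III, was the extreme at 0.44 for Dmimic (adjusted p = 0.133), and 0.36 without that array (adjusted p = 0.0391). Of 28 measured metabolic genes 0 were called, with medians of 0.01 for Qmimic and -0.02 for Dmimic with all 9 arrays, and -0.06 and -0.09 without AllStar replicate 3. With all 9 arrays 12 were negative for Qmimic and 15 for Dmimic (42.9% and 53.6%). Without AllStar replicate 3, 22 were negative for each mimic (78.6%, against 52.1% of all genes for Qmimic and 47.4% for Dmimic). TYMS, thymidylate synthase, had -0.56 for Dmimic (adjusted p = 0.254), and -0.67 without AllStar replicate 3, where it was not called. It was called for Dmimic when Dmimic replicate 2 was left out as well, in a fit that called 483 of all genes. CACGTG was present in the promoters of 9 of 20 matched ribosome genes (45.0%), 9 of 25 metabolic genes (36.0%) and 4 of 14 cell cycle genes (28.6%), against 7.4% of all promoters.

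Of 18 measured genes known to be repressed with MYC, the median was 0.07 for Qmimic and 0.16 for Dmimic with all 9 arrays. With all 9 arrays 8 were negative for Qmimic and 7 for Dmimic (44.4% and 38.9%, against 53.0% and 51.9% of all genes). When AllStar replicate 3 was left out the medians were -0.01 and 0.04. In that fit 10 and 7 were negative (55.6% and 38.9%, against 52.1% and 47.4%). Of the 18, 1 passed, in Dmimic cells, where 0.647% of all genes were called lower: NDRG1, a stress-response gene (-0.62, adjusted p = 0.0193). It was not called without AllStar replicate 1 or 2 or Dmimic replicate 1 or 3 as well. CDKN1A, the inhibitor p21, read 9.73, 9.74 and 9.74 in Qmimic cells, 9.57, 9.72 and 9.59 in Dmimic cells, and 10.18, 10.13 and 9.99 in AllStar cells, and its differences of -0.42 (adjusted p = 0.0214) and -0.53 (adjusted p = 0.0107) in that fit stayed under 1.5-fold. CEBPD and THBS1 had the other sign in that fit, also under 1.5-fold, at 0.46 (adjusted p = 0.0462) and 0.27 (adjusted p = 0.162) for Qmimic and 0.44 (adjusted p = 0.0455) and 0.53 (adjusted p = 0.0238) for Dmimic.

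In the list of 17 genes for MYC protein turnover, 1 passed, and only without AllStar replicate 3. GSK3B, the kinase that marks MYC for degradation, read 7.75, 7.90 and 7.99 in Qmimic cells, 8.69, 8.75 and 8.70 in Dmimic cells, and 8.68, 8.73 and 8.21 in AllStar cells. It fell in Qmimic cells by 0.82 relative to AllStar (adjusted p = 0.00452), where 0.253% of all genes were called lower. Relative to Dmimic it fell by 0.84 (adjusted p = 0.00216), where 0.0860% of all genes were called lower. With all 9 arrays GSK3B was not called. Against Dmimic it was called in all 8 fits that left out 1 further array, and against AllStar in 6, all but those without AllStar replicate 1 or 2.

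Among 12 measured SIN3 and histone deacetylase genes, which serve the MXD proteins and MNT, 1 passed, and only without AllStar replicate 3. HDAC1 fell in Dmimic cells (-0.65, adjusted p = 0.0217), where 0.647% of all genes were called lower. HDAC1 lost this call without AllStar replicate 1 or 2 or Dmimic replicate 3 as well. It read 10.72, 10.72 and 10.80 in Qmimic cells, 10.50, 10.62 and 10.20 in Dmimic cells, and 11.11, 11.07 and 10.53 in AllStar cells, so AllStar replicate 3 lay among the mimic arrays. The 19 measured MYC cofactors, the 10 measured MGA partners of the Polycomb-type complex and the 10 measured germline genes reported to be silenced through MGA held 0 called genes in either fit. With all 9 arrays the medians were 0.06 for Qmimic and -0.03 for Dmimic in the turnover list, 0.05 and 0.00 in the SIN3 list, 0.13 and 0.12 for the cofactors, 0.03 for each mimic among MGA partners, and 0.02 and -0.04 among germline genes. When AllStar replicate 3 was left out they were -0.07 for Qmimic and -0.16 for Dmimic in the turnover list, -0.09 and -0.15 in the SIN3 list, 0.02 and 0.03 for the cofactors, -0.02 and -0.08 among MGA partners, and 0.04 for each mimic among germline genes, so the turnover Qmimic, SIN3 Qmimic, both MGA partner and the germline Dmimic medians changed sign. Genes with calls above were named after their values were seen.

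As a description of MYC's pattern, the genes most correlated with 202431_s_at over the 9 arrays, among 11314 genes with a mean of at least 6, were MYEOV (r = 0.985), GSTA4 (0.971), ETV4 (0.971), ESYT2 (0.968) and ATAD1 (0.967). Over the 8 arrays without AllStar replicate 3 they were GSTA4 (0.982), MYEOV (0.978), GCGR (0.969), ESYT2 (0.967) and NCBP2AS2 (0.966). These correlations were picked as the highest of many over few arrays, and on the 9 arrays they include the low reading of AllStar replicate 3. MYEOV read 9.72, 9.69 and 9.76 in Qmimic cells, 10.03, 10.02 and 10.00 in Dmimic cells, and 10.03, 10.04 and 9.59 in AllStar cells.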

How the data were processed

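Arrays of the HG-U133 Plus 2.0 type were used, 1 for each of 9 wells. RMA, run by the authors per the submitters' processing notes, gave the deposited values, which are on a log2 scale. Those notes list RMA and limma and no version of either. The 62 control probe sets were set aside, and no filter on low values was applied to the other 54613. Of these, 41091 map to 1 gene symbol, 1801 to several and 11721 to none.

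One limma 3.58.1 model (R 4.3.3) with 3 groups was fitted to all 54613 probe sets, and p values were adjusted by Benjamini-Hochberg over all of them. A probe set was called at an adjusted p under 0.05 with at least 1.5-fold change, as the series text words it. The fit was repeated without AllStar replicate 3. All adjusted p values come from these fits, and single values were also given an exact two-sided permutation test. The fit was tested on simulated data with the same spread on every array, which held no array like AllStar replicate 3. Precision is limited by how few arrays there are.

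The labels do not say whether the replicate numbers pair arrays across groups. Among 9 pairs sharing a number, residuals correlated above 0.1 in 3, over a range of -0.275 to 0.219. With 3 arrays in each group and AllStar replicate 3 apart from the rest, these correlations cannot settle pairing. The labels give no array date or batch.

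The members and lists were chosen with earlier results of these data known. Values on every array are given for each member's probe set with the highest mean and for others that the text turns on, which were chosen after their values were seen. From each list, genes were taken by the smallest adjusted p over both mimics, and called genes were added. List genes without a single-symbol probe set, 18 in all, were not measured. Sequences are RefSeq's. The alternatives tried are given in the closing section.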

Additional observations from a re-analysis of the deposited data

How the results depend on the processing

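The count of member probe sets called was 0 under every alternative run. The counts over all probe sets moved. Against 0 for Qmimic, 3 for Dmimic, 44 for both mimics and 0 for Qmimic against Dmimic, leaving out 1 array gave 0 to 295, 0 to 472, 0 to 394 and 0 to 44, each maximum being the fit without AllStar replicate 3. Quantile normalization repeated gave 63, 103, 244 and 15, cyclic loess 129, 234, 374 and 15, and array weights 594, 696, 546 and 58, with a weight of 0.0572 for AllStar replicate 3 from an estimate that stopped before its tolerance was reached. A replicate block gave 1, 0, 1 and 0. Whether the numbers pair the arrays is not known, and 3 of 9 arrays correlated best with an array of their own number. For Dmimic and for both mimics, a log2 threshold of 1.5 gave 0 and 5, the upper part of the probe sets by level 6 and 133, and a trended robust eBayes 12 and 72. Centring on medians gave 0 for both mimics. With only the compared groups fitted, Dmimic gave 0 and Qmimic against Dmimic 34, and the mean of both mimics was not run.

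For 44 member differences and 1265 alternative values, none moved across the calling threshold. The sign changed in 114 values of 16 differences, all with a difference of at most 0.147 in size in the fit as reported. Dmimic minus AllStar for MXD1 226275_at ranged from 0.46 to 0.80 and for MXD3 from -0.59 to -0.35. Dmimic minus AllStar for MLX 213708_s_at ranged from -0.03 to 0.43. Of 19 alternatives that dropped 1 array or changed 1 other choice, an adjusted p under 0.05 was reached by that MXD1 and MLX difference in 2, without AllStar replicate 3 and with array weights, and by MXD3 in 1, with array weights (0.00751). Of 10 fits without AllStar replicate 3 that changed a further choice, it was reached by MXD1 in 2, by MLX in 5 and by MXD3 in 1. The fits without AllStar replicate 3 that also left out another array (members and lists), repeated the quantile step, added the replicate block or kept 1 probe set per gene were chosen after the data were seen. For 3 arrays against 3, an exact test of 1 value cannot go below 0.1.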
